A study of Mus musculus with 101 samples.

Results

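The regions described here are those that the depositors of this data set placed in a category named for a comparison of B6J, the inbred strain C57BL/6J, with a second inbred strain, read in 85 lines of mouse embryonic stem cells. Members were the regions of that category with a value in at least 80% of the lines, after leaving out 3 intervals at Irak3, Lhx9 and Nkx2-1. Of 92 regions in the category, 73 had enough values, 5 of these lay in the 3 intervals, and 68 members remained of 787 regions kept in the whole table of 868. The rule used the category name and the number of values, not the methylation levels. Just inside the limit of 68 lines were the regions near Pou2f3 and at Zfp759, with values in 68 and 71 lines. Just outside it were those at Slfn8 and Olfr747, with values in 66 and 65 lines.

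The cells were embryonic stem cells of Diversity Outbred mice, an outbred stock bred from inbred founder strains, among them C57BL/6J. Every line had been kept in medium with serum, LIF and 2i (inhibitors of 2 kinases that hold such cells in a naive state of pluripotency), and no untreated or other control group was present. DNA methylation was read by enzymatic methyl sequencing (EM-seq) after capture of target regions, and each value is the methylation of 1 region in 1 line, in percent. The line names begin with 1 of 4 prefixes, which stood for 28 B1, 18 B2, 20 B3A and 19 B3B lines; 31 names end in N (6, 0, 16 and 9 in the same order). What the prefix, the final N and the basis of the category name stand for could not be taken from the labels. Prefix and final N overlap, so part of any prefix difference and a difference between lines with and without N cannot be told apart. Age and sex of the source embryos, and whether lines came from separate embryos were likewise not found in the labels, so p-values measure the spread between these lines.

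In mammals, DNA methylation sits mostly on the cytosine of CG dinucleotides (CpGs) and is copied to the new strand after replication. Naive embryonic stem cells in 2i hold little of it, and the amount that is left differs from line to line. The methylation of a region can therefore follow the level of the whole line, or vary on its own from one line to the next, and among genetically distinct lines either pattern may be graded or fall into separate levels. The line mean used below is the mean over the 714 kept regions outside the category. It was 19.01% ± 10.1 (SD, n = 85) and ranged from 3.01% to 43.7%.

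The tables carry no read counts, so the depth behind a value is unknown and no counting interval could be given. Among regions at genes that mark naive cells, those of Tbx3, Nanog and Zfp42 had means over lines of 0.191% ± 0.381 (SD, n = 83), 0.360% ± 0.599 (SD, n = 85) and 0.792% ± 1.44 (SD, n = 80), and that of Dppa3 had 6.26% ± 6.47 (SD, n = 64). Among regions at genes of other lineages, 3 at Foxa2 had means of 3.47%, 3.77% and 7.75%, Sox17 had 5.03%, Gata4 13.9% and Pax6 56.7%. The means at Tbx3, Nanog and Zfp42 lay below all of these. The means of both lists thus overlapped only through Dppa3, which had values in too few lines to be kept. The regions of both lists report methylation, not which cells were present. The columns named B1_B37 and B1_B37N share a line number. Their deviations from the line mean correlated over the members at r = 0.66, the rank 2 value among 3570 pairs of columns (SD 0.173 over pairs, highest 0.68). Both were kept as lines, and without B1_B37N the member counts given below changed by at most 1.

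The members lay on 20 chromosomes, and their lengths ran from 101 to 2212 bp with a median of 537.5 bp. Chromosome 13 held 16 members (23.5%, beside 5.34% of all kept regions) and chromosome 14 held 12 (17.6%, beside 4.57%). A gene was overlapped by 51 members (75%, beside 90.2% of all kept regions), by 44 of them a protein-coding one, and 16 more lay within 5 kb of a gene. The exception was the region 11436 bp from Rubie. Coordinates are mm10 throughout, and the gene table used has no exons, so exon and intron cannot be stated.

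A start-site window, taken as 250 bases before to 50 after the start of a gene, was overlapped by 12 members (17.6%, beside 28.8% of all kept regions). Of the windows that lie wholly within a member, 4 hold at least 3 CpGs with values of their own and 3 hold 1 or 2. The 4 are shown because they span low to intermediate levels and weak to strong ties to the line mean. Sequences are from RefSeq on GRCm38.p6, the assembly of mm10, read 5′ to 3′ on the strand of the gene, with CG dinucleotides in capitals. They start at Ldhal6b (chr17:5418718-5419017, minus strand, inside the Tmem242 region), Ccnb1ip1 (chr14:50795679-50795978, minus strand), Meg3 (chr12:109540746-109541045, plus strand) and Inhbc (chr10:127370499-127370798, minus strand).
Ldhal6b: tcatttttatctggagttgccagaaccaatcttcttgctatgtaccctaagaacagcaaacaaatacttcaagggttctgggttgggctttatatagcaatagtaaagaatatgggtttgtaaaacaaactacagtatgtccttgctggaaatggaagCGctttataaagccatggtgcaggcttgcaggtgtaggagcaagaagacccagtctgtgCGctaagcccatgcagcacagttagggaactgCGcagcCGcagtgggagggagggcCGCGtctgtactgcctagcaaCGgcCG
Ccnb1ip1: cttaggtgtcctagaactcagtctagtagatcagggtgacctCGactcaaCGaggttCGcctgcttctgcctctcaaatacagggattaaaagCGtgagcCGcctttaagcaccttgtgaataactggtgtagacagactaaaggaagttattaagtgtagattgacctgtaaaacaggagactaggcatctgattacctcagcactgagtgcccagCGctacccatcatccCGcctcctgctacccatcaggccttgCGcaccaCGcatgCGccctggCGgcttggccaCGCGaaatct
Meg3: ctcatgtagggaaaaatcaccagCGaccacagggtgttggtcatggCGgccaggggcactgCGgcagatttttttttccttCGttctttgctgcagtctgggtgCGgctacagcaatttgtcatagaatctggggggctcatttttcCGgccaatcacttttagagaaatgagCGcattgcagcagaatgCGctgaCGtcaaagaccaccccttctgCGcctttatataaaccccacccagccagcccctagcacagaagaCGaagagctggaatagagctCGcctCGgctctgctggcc
Inhbc: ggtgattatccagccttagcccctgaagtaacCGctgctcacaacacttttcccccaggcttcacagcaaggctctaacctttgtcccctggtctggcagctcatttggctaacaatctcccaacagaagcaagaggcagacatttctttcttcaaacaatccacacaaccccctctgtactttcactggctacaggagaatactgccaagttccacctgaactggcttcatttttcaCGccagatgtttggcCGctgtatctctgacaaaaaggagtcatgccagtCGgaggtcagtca

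The Ldhal6b window holds 8 CGs, the Ccnb1ip1 and Meg3 windows 13 each and the Inhbc window 4. Among 32851 windows of the same length the median was 7 CGs, and 48.6% held at least as many as Ldhal6b, 37.9% as many as Ccnb1ip1 or Meg3 and 68.6% as many as Inhbc. Ldhal6b, a testis-expressed gene of the lactate dehydrogenase family, had all 8 CGs measured, with means over lines of 1.48% to 2.36%. Ccnb1ip1, which encodes an E3 ligase of meiotic crossing-over, had 5 measured CGs with means of 9.55% to 12.98%. Meg3, an imprinted long non-coding RNA made from the maternal copy, had all 13 measured, at 17.6% to 30.9%. Inhbc, a subunit of the activin and inhibin family, had 3 measured, at 18.8% to 29.8%. The windows of Ccnb1ip1 and Meg3, with 13 CGs each, thus differed in level, though only 5 of the 13 were measured at Ccnb1ip1.

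Levels at the members ranged widely between lines. The mean over lines had a median of 16.7% over members, beside 15.7% over all kept regions, and ran from 0.912% at Rpa3 to 44.9% at Arhgap22. The SD over lines had a median of 13.5 points, beside 11.4 over all kept regions. The lowest line stood at exactly 0 at 46 members (67.6%, beside 40.2% of all kept regions), and the highest line was above 50% at 43 (63.2%, beside 51.7%). At members with a mean under 10% the median SD was 6.58 points (20 members), beside 1.94 over the 289 kept regions of that band outside the category. The 2 sets differed in level within this band, as 9 of the members and 204 of the other regions had a mean under 5%. Their SDs are therefore not compared at equal level. Between 10% and 25% the medians were 11.5 and 12.05 points, and above 25% they were 19.5 and 20.4.

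The 5 members with the largest SD were all of intermediate mean. The region near 2610528A11Rik ran from 0% through a median of 25% to 92.9% (SD 23.8, n = 77). Ppfibp1, which encodes a liprin of cell adhesion sites, ran from 0% through 37.9% to 91.7% (SD 22.98, n = 82). Gm41005, a long non-coding RNA, ran from 0% through 31.3% to 82.6% (SD 22.97, n = 85). Arsk, a lysosomal sulfatase, ran from 0% through 33.7% to 74.5% (SD 21.4, n = 78), and Arhgap22 from 6.70% through 43.7% to 87.4% (SD 21.1, n = 85). In each of these the lines filled the range from bottom to top rather than gathering at its ends.

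**Figure D1:**
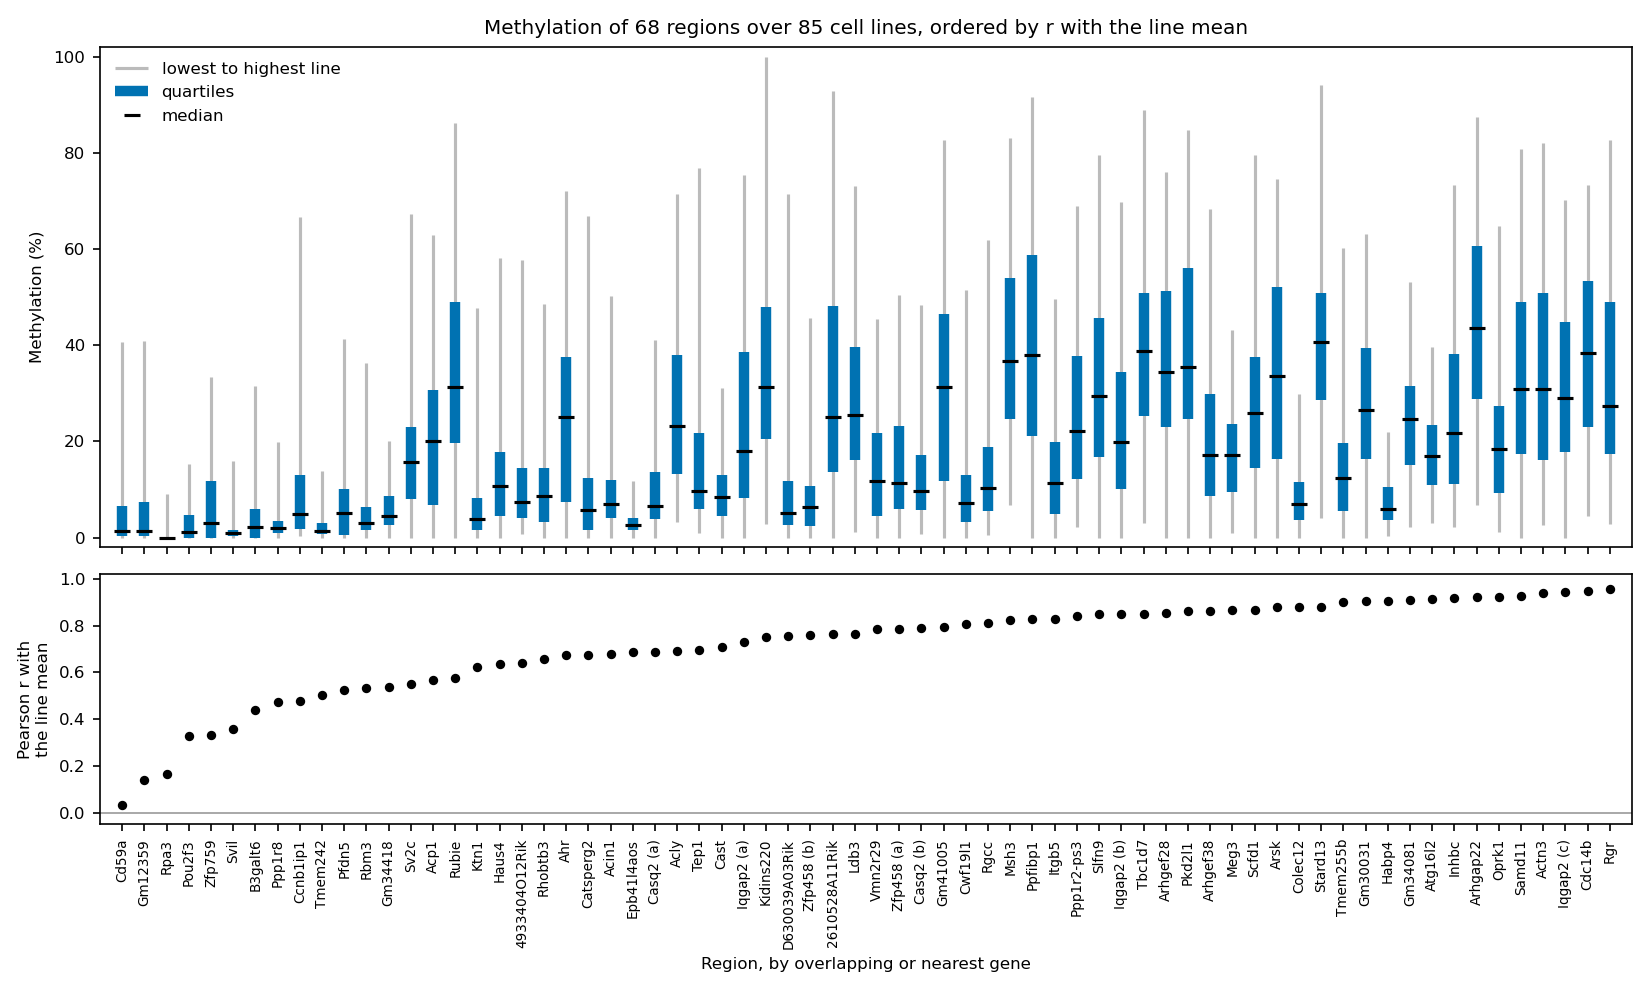
Methylation in percent (upper axis) of the 68 regions, named on the horizontal axis by gene, and their Pearson r with the line mean (lower axis); grey lines run from the lowest to the highest of up to 85 lines, blue bars between the quartiles, and black dashes mark medians. The r rises from 0.03 at Cd59a on the left to 0.96 at Rgr on the right, and the regions with r under 0.5 all have means under 10%.

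Most members followed the level of the line, though less closely than other regions. Pearson's r with the line mean had a median of 0.77 over the members, beside 0.87 over all kept regions and 0.89 over those outside the category. The line mean was formed from the regions outside the category and holds no member. How much of the difference in r and in unshared variance goes with this definition was not tested. It was positive and passed at 65 of 68 members (permutation test with 100000 resamples, two-sided, Benjamini-Hochberg adjusted over 787 regions), against a background of 95.0% of kept regions, and by Spearman's rho at 66 (background 95.4%). These shares lie near the background, and the difference showed in the size of r instead. An r above 0.9 was reached at 13 members (19.1%), against 42.3% of all kept regions, while r under 0.5 was found at 9 (13.2%), against 13.7%. The share of a region's variance over lines that the line mean did not account for had a median of 40.02% at members and 23.97% at all kept regions. The SD of the deviations from the straight line on the line mean, called deviations below, had medians of 7.28 and 4.69 points.

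The lower r was present at every level of methylation. For means under 10%, the median r was 0.51 at 20 members and 0.64 at 289 regions outside the category. For means of 10% to 25% it was 0.78 at 23 members and 0.90 at 164 other regions, and for 25% to 60% it was 0.85 at 25 members and 0.95 at 259 others. All 9 members with r under 0.5 had means under 10%, as did all 97 such regions outside the category. An r above 0 in all 4 prefixes was found at 64 members, a count that was not made over all kept regions. The median r of the members was 0.73 within B3A, 0.76 within B2, 0.77 within B1 and 0.85 within B3B. Over all kept regions the same medians were 0.87, 0.85, 0.85 and 0.91. Lines with a final N gave 0.74 and lines without it 0.80, and without the 2 lines farthest from the median line mean it was 0.76. Slopes on the line mean that differed between prefixes were called at 0 of 68 members and 0 of 787 regions (limma F test of the interaction on log2 odds, adjusted p), with 7 members (10.3%) and 85 regions (10.8%) at an unadjusted p under 0.05. On untransformed fractions the same test called 4 members (Rgcc, Itgb5, D630039A03Rik and an Iqgap2 region) and 18 regions.

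The 5 members least tied to the line mean were low in most lines, and 4 of them had a highest line between 15.4% and 40.8%, while Rpa3 stayed at or under 9.09%. Cd59a encodes a membrane protein that blocks the last step of complement attack. Its region ran from 0% through a median of 1.38% to 40.6% (n = 85), with 37 lines under 1%, 12 between 10% and 25% and 3 above 25%. Its r was 0.03 (permutation p = 0.764, adjusted 0.767) and its rho -0.05 (adjusted permutation p = 0.621), and r was 0.07 without the 2 farthest lines. The 3 highest lines, at 40.6%, 35.5% and 32.6%, had line means of 24.2%, 12.5% and 29.04%, so they came from different parts of the range of line means. By prefix the highest value was 40.6% among B3B lines, 35.5% among B2, 32.6% among B3A and 15.3% among B1, and r within these prefixes was 0.30, -0.07, 0.54 and -0.34.

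Gm12359, a long non-coding RNA, ran from 0% through 1.33% to 40.8% (n = 85), with 36 lines under 1%. Its r was 0.14 (permutation p = 0.196, adjusted 0.202), whereas its rho of 0.26 passed (adjusted permutation p = 0.0168). At Rpa3, the smallest subunit of the single-strand DNA binding protein RPA, 57 of 74 lines were at 0 and the rest lay between 1.08% and 9.09%. The r was 0.16 (adjusted permutation p = 0.168). The 5 highest lines of Rpa3 all carried the prefix B1, at 6.67% to 9.09%. A limma F test over the 4 prefixes gave Rpa3 an adjusted p of 0.0736.

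The region near Pou2f3, a POU-domain transcription factor, ran from 0% through 1.21% to 15.4% (n = 68), with r = 0.33 (adjusted permutation p = 0.00689) and rho = 0.29. Within B3A alone its r was negative, at -0.26. Zfp759, a zinc finger gene, ran from 0% through 3.13% to 33.3% (n = 71), with r = 0.33 (adjusted permutation p = 0.00484) and rho = 0.35. Both passed, yet the line mean left 89.3% and 89.0% of their variance. The next members in order were Svil, B3galt6, Ppp1r8 and Ccnb1ip1, with r of 0.36, 0.44, 0.47 and 0.48.

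At the other end, 5 members followed the line mean nearly as a straight line. Rgr, a light-sensitive receptor of the eye's pigment epithelium, ran from 2.85% through 27.4% to 82.6% (n = 85), with r = 0.96 and rho = 0.97. Cdc14b, a phosphatase of the cell cycle, ran from 4.57% through 38.3% to 73.3% (n = 85), with r and rho of 0.95 and 0.96. The region 986 bp from Iqgap2, a scaffold protein, ran from 0% through 29.1% to 70.2% (r = 0.94, n = 85). Actn3, the actinin of fast muscle fibres, ran from 2.63% through 30.96% to 82.03% (r = 0.94, n = 85), and Samd11 from 0% through 30.9% to 80.9% (r = 0.92, n = 76). All 5 had a permutation p of 1e-05, the smallest that 100000 resamples can give. Their slopes were 1.94, 1.75, 1.64, 1.87 and 1.87 points per point of line mean, and without the 2 farthest lines r was 0.95, 0.95, 0.94, 0.93 and 0.92.

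**Figure D2:**
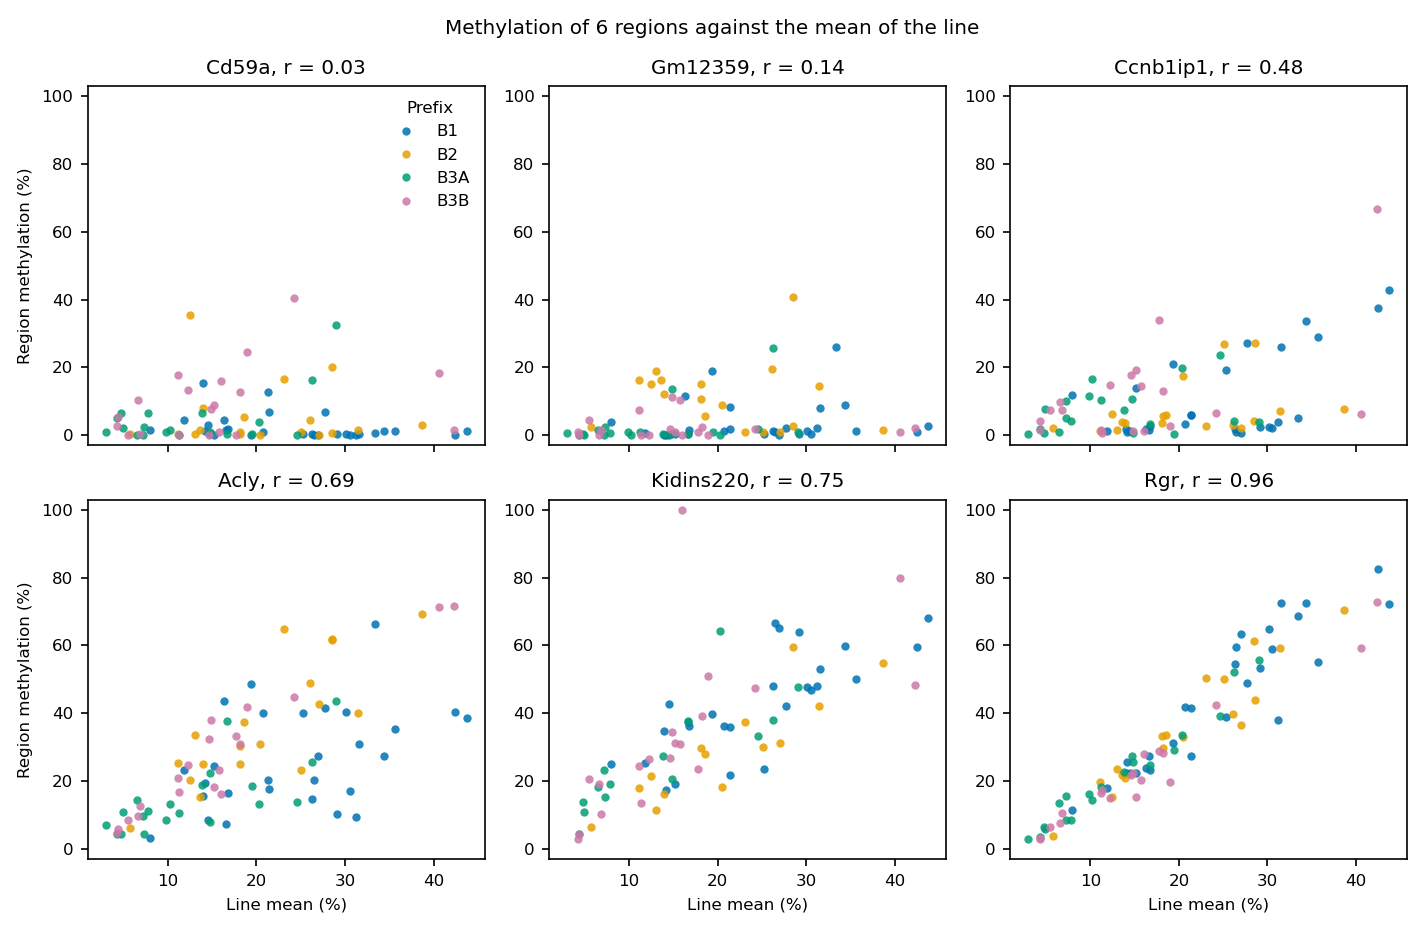
Methylation of 6 regions in each line (vertical axis, percent) against the line mean (horizontal axis, percent), with 1 point per line coloured by prefix. Cd59a and Gm12359 stay near 0 in most lines at any line mean with single lines up to 40.6% and 40.8%, Ccnb1ip1 and Acly fan out, Kidins220 has 1 line at 100%, and Rgr rises in a narrow band.

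Whether values over lines were graded or in steps was described in several ways, without a test. A Gaussian mixture with more than 1 component and a gain in the Bayesian information criterion (BIC) over 10 was found at 41 of 68 members, against 51.7% of all kept regions. With equal variances it was found at 36 (background 45.6%), and on log2 odds at 11 (background 11.1%). A smooth distribution with a long tail can also meet this criterion, so the count does not by itself separate steps from skew. The largest gap between neighbouring lines, with at least 10% of lines on each side, had a median of 5.33% of the range, beside 4.78% over all kept regions. It exceeded 10% of the range at 4 members (background 3.05%): Rpa3 with 11.8%, Habp4 with 11.7%, the Casq2 region at 102085791 with 11.5% and Catsperg2 with 10.1%. The range of Rpa3 was short, with its highest line at 9.09%. Of the 59 members whose lines spanned more than 30 points, 48 had a line in every step of 10 points from the lowest to the highest (81.4%, beside 94.4% of such kept regions).

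By their region values, Acp1 and the region near Rubie are examples with lines through most of the range. Acp1, a small tyrosine phosphatase, had 12 of 85 lines under 1%, 25 under 10%, 27 between 10% and 25%, 29 between 25% and 50% and 4 above. Its only CpG with values of its own differed from this, with 42 lines at 0, a median of 0.599% and a highest value of 56.25%. The r with the line mean was 0.19 at this CpG and 0.57 for the region. The region near Rubie, a non-coding RNA, had 5, 22, 27, 13 and 4 of its 71 lines under 10%, to 25%, to 50%, to 75% and above. Some members of low mean, such as Cd59a with 37 and Gm12359 with 36 of 85 lines under 1%, had many lines near 0 and a tail. At Catsperg2, of the sperm calcium channel, 74 lines lay at or under 23.7% and the next at 30.4%, up to 66.8%. Habp4, which encodes an RNA-binding protein, had only 2 lines under 1%, and its lines spread through a short range that followed the line mean (r = 0.91). There 75 lines lay at or under 14.3% and the other 10 from 16.8% to 21.9%. Those 10 lines did not stand apart once the line mean was taken off, where the largest gap of Habp4 was 2.21% of the range.

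**Figure D3:**
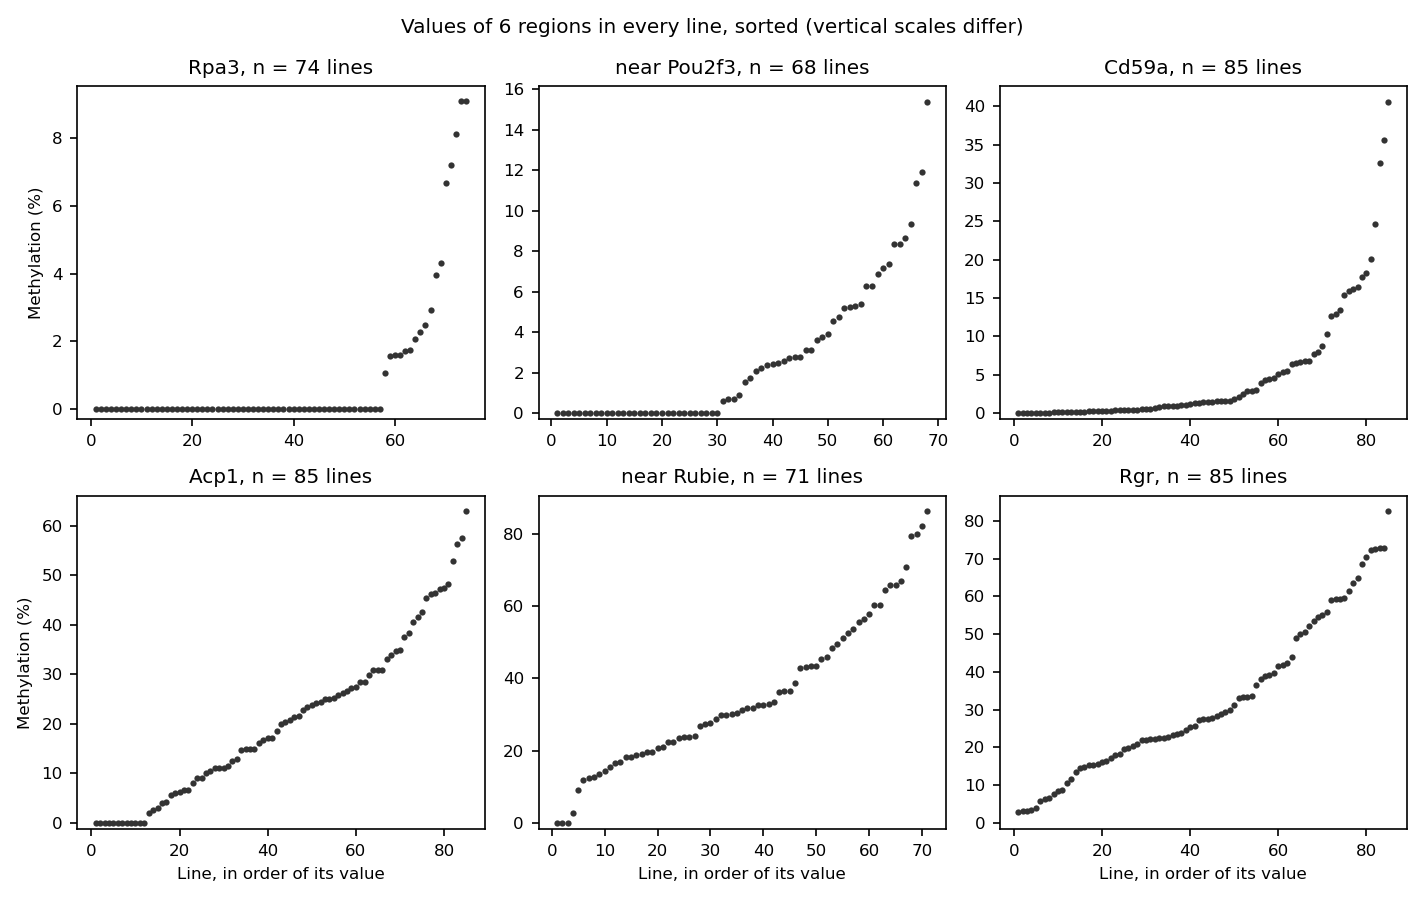
Methylation in percent (vertical axes, on different scales) of 6 regions in every line with a value, with the lines in order of their value on the horizontal axis. Rpa3 is flat at 0 in 57 of 74 lines and Cd59a near 0 in most, whereas Acp1, the region near Rubie and Rgr climb through their range with no flat level above 0.

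Of the deviations from the line mean, 16 members had more than 1 component at a BIC gain over 10 (background 22.2%), 16 with equal variances (background 21.1%) and 21 on log2 odds (background 13.7%). All 3 descriptions named the same 6 members (8.82%): Cd59a, Gm12359, Rpa3, Pou2f3, Kidins220 and Ldb3. The share of all kept regions named by all 3 was not computed, so whether this agreement is unusual cannot be stated. A gap above 10% of the range was present in the deviations of 2 members (background 0.635%), Pou2f3 with 14.7% and Rpa3 with 11.4%. At Pou2f3 it separated 61 lines from the others. Both regions were low in most lines, with highest values of 15.4% at Pou2f3 and 9.09% at Rpa3. A small gap in points can be a large share of such a short range. The background covers kept regions of all levels, so these gaps are not read as steps.

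Kidins220, a scaffold of neurotrophin receptors, ran from 2.86% through 31.3% to 100% (n = 73), and its r of 0.75 was below its rho of 0.84. The line at 100%, a B3B line, had a line mean of 16.01%, and the next line stood at 80.0%. Ldb3, a protein of the muscle Z-disc, ran from 1.25% through 25.5% to 73.1% (r = 0.77, n = 85). The 10 further members with components in the deviations ranged from low to intermediate levels. Svil (membrane-linked actin binding) had its highest line at 15.9%, B3galt6 (proteoglycan linker synthesis) at 31.6%, Ppp1r8 (an inhibitor of phosphatase 1) at 19.9% and Tmem242 at 13.9%, with medians of 0.902%, 2.27%, 1.94% and 1.46%. Rbm3 (a cold-induced RNA-binding protein), Gm34418 and Cast (the inhibitor of calpain) reached 36.4%, 20.04% and 31.05% from medians of 3.03%, 4.38% and 8.33%. Acin1 (chromatin condensation in apoptosis) and 4933404O12Rik (a long non-coding RNA) reached 50.3% and 57.8% from medians of 7.02% and 7.45%, and Gm30031, another, 63.2% from 26.5%. None of the 10 was named by all 3 descriptions.

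Prefixes differed at many members in the way that whole lines differed. B1 lines had a line mean of 24.5% ± 9.21 (SD, n = 28) and B2 lines one of 20.8% ± 8.44 (SD, n = 18), against 12.8% ± 7.78 (SD, n = 20) for B3A lines and 15.8% ± 10.5 (SD, n = 19) for B3B lines. A prefix difference was called at 49 of 68 members (limma F test on log2 odds, adjusted over 787 regions), against 81.6% of all kept regions. Of these 49, B1 had the highest mean at 40 and B3A the lowest at 41, and the ranges of all prefixes overlapped at all 49. These counts were not made over all kept regions, and the line mean too was highest in B1 and lowest in B3A. They are therefore not read as particular to the members. With the line mean as a covariate 4 members were called, or 5.88%, against a background of 3.43%. The prefix means given for these 4 below are not adjusted for the line mean. Their order need not be that of the difference beyond it.

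At Gm12359 the B2 lines stood higher, at 11.3% ± 9.96 (SD, n = 18), with lowest, median and highest values of 0.944%, 11.4% and 40.8%. B1 had 3.74% ± 6.16 (SD, n = 28), B3A 2.60% ± 6.23 (SD, n = 20) and B3B 2.48% ± 3.49 (SD, n = 19), with medians of 1.31%, 0.653% and 1.08%. The adjusted limma p was 0.000178 without and 0.00713 with the line mean. All ranges overlapped, and the highest lines of B1 and B3A reached 25.9% and 25.8%. At Acly, the enzyme that makes cytosolic acetyl-CoA, B2 had 36.8% ± 18.2 (SD, n = 18; 6.25% to 69.2%) and B3A 15.01% ± 10.5 (SD, n = 20; 4.30% to 43.7%). B1 and B3B had 26.8% ± 15 (SD, n = 28) and 27.7% ± 19.5 (SD, n = 19), and the adjusted limma p with the line mean was 0.00768.

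At 4933404O12Rik B3B had 13.8% ± 14.95 (SD, n = 19; median 7.03%) and B2 7.62% ± 9.13 (SD, n = 18; median 5.06%), with B1 at 11.6% ± 7.20 and B3A at 8.89% ± 7.21. The adjusted limma p was 0.112 without and 0.00497 with the line mean. Ktn1, an anchor of kinesin on membranes, was highest in B1 lines, at 11.1% ± 12.3 (SD, n = 27), against 7.003% ± 7.53 (SD, n = 17) for B3B lines. B3A lines had 5.66% ± 6.01 (SD, n = 20) and B2 lines 4.003% ± 5.70 (SD, n = 18), and all ranges overlapped. Its adjusted limma p was 0.0885 without and 0.0429 with the line mean, and 0.0518 when the column B1_B37N was left out. Among lines without a final N, the adjusted limma p with the line mean was 0.196 at 4933404O12Rik, 0.201 at Acly and 0.287 at Ktn1, so these 3 calls were lost there; such lines include all 18 of B2 but only 4 B3A lines.

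Deviations from the line mean were shared between members that lay close together. These correlations over lines are descriptions, since the lines share the capture and the line mean was removed from each. For the 5 pairs of members under 50 kb apart the median r of the deviations was 0.65 (0.49 to 0.91), and for 15 pairs at 50 to 500 kb it was 0.32. It was 0.15 for 38 pairs at 500 to 5000 kb, 0.01 for 172 pairs farther apart on 1 chromosome and -0.01 for 2048 pairs on different chromosomes (-0.49 to 0.56). Regions outside the category gave 0.18 over 50 pairs under 50 kb and 0.05 over 216 pairs at 50 to 500 kb. On log2 odds the medians of the members were 0.65 under 50 kb and 0.17 at 50 to 500 kb.

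**Figure D4:**
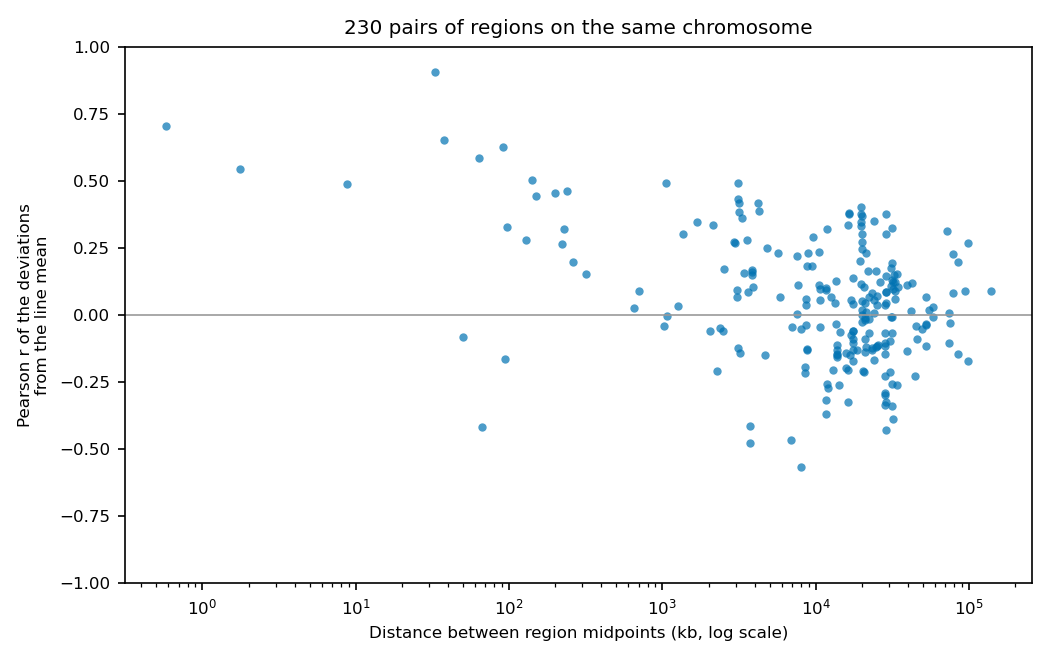
Pearson r over lines of the deviations from the line mean (vertical axis) against the distance between midpoints in kb (horizontal axis, log scale), with 1 point for each of 230 pairs of regions on the same chromosome. All 5 pairs under 50 kb have r of 0.49 or more, and values spread around 0 beyond 5000 kb.

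Ccnb1ip1 and Tep1, a protein bound to telomerase and vault RNA, lay 33.1 kb apart and shared the highest value, r = 0.91 over 85 lines (rho 0.92). It was 0.93 in lines without and 0.83 in lines with a final N. The same 3 lines were highest at both, at 66.6%, 42.9% and 37.6% for Ccnb1ip1 and 76.9%, 65.1% and 64.8% for Tep1, and these had line means of 42.3%, 43.7% and 42.5%. Next came the pair near Casq2, the calcium store protein of heart muscle, with r = 0.71 at 0.576 kb. Gm41005 and Rhobtb3 had 0.65 at 37.9 kb, and a pair in Iqgap2 had 0.63 at 91.5 kb. Rgr and 2610528A11Rik had 0.59 at 64.1 kb, and the regions across and within Meg3 0.54 at 1.76 kb.

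Closeness did not always go with a positive r. Pkd2l1, a cation channel, and Cwf19l1 lay 66.5 kb apart and had r = -0.42 (rho -0.42, n = 81), and Habp4 and Cdc14b had -0.08 at 50.2 kb although their levels correlated at 0.85. In the zinc finger cluster of chromosome 13, Zfp759 had 0.50 and 0.44 with the regions of Zfp458, 140.8 and 149.6 kb away, which themselves had 0.49 at 8.79 kb.

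Some members of chromosome 14 had larger values at larger distances. The region near Rubie, Ktn1, Ccnb1ip1 and Tep1, spread over 4241 kb, had r of 0.39 to 0.49 with one another apart from the 0.91 of the last 2. Haus4, a subunit of the augmin complex of the spindle, had negative values with all 4: -0.57 with Rubie (n = 71), -0.47 with Ktn1, -0.48 with Ccnb1ip1 and -0.41 with Tep1. Within lines with a final N these 4 values for Haus4 were -0.54, -0.52, -0.54 and -0.43, and within lines without it -0.56, -0.46, -0.43 and -0.37. The positive values between Ccnb1ip1 and Rubie or Ktn1 were 0.58 and 0.51 without a final N and 0.11 and 0.13 with it, and those between Tep1 and the same regions were 0.54 and 0.46 without it and 0.08 and 0.14 with it. On log2 odds Ccnb1ip1 had 0.29 with Rubie and 0.20 with Ktn1, Tep1 had 0.33 and 0.21, and Rubie had 0.39 with Ktn1. Values of this size also occurred across chromosomes, as Cwf19l1 on chromosome 19 had 0.50 with Tep1, 0.48 with Ccnb1ip1 and 0.46 with Ktn1.

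**Figure D5:**
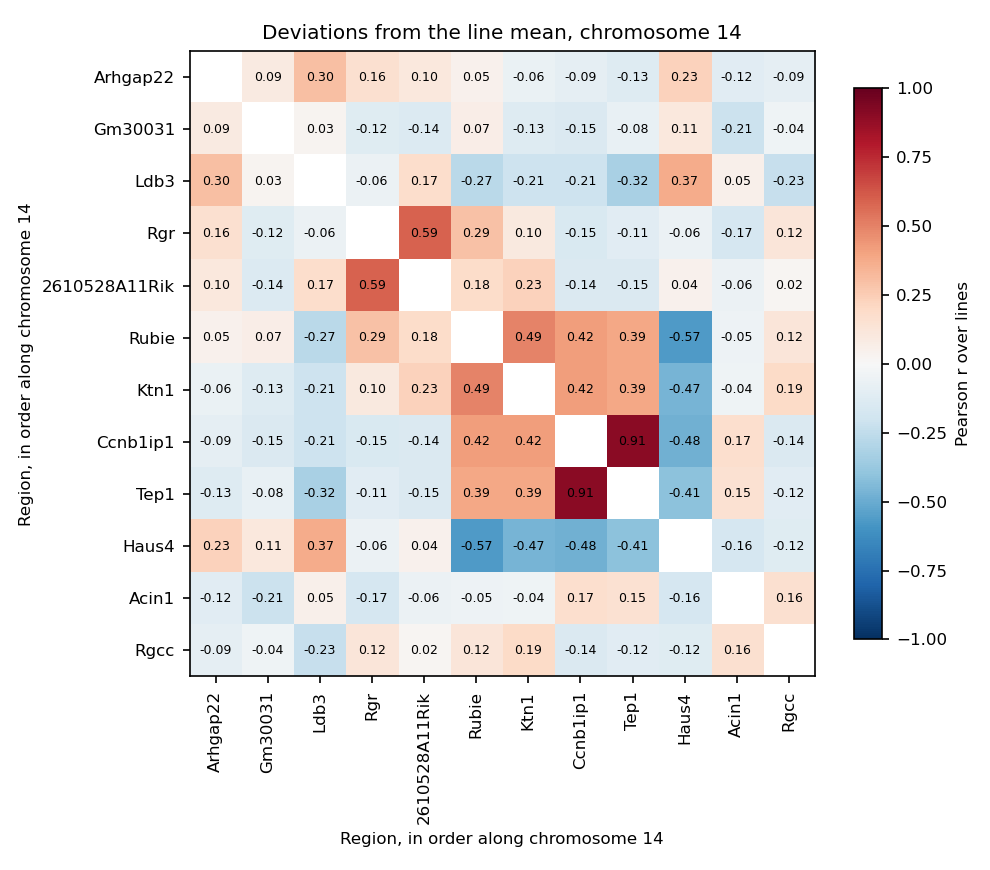
Pearson r over lines of the deviations from the line mean for each pair of the 12 regions on chromosome 14, in order along the chromosome on both axes, with red for positive and blue for negative values. Rubie, Ktn1, Ccnb1ip1 and Tep1 form a positive block of 0.39 to 0.91, and Haus4 is negative with each of these.

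Between chromosomes, 6 of 2048 pairs exceeded 0.5 (0.293%, beside 1.09% of such pairs of kept regions outside the category). Values of this size were thus no more frequent among members than among other regions. The highest were Haus4 with Acly, at 0.56 (n = 85), and Catsperg2 with Itgb5, at 0.54, followed by Cd59a with the Zfp458 region at 67278407 and with Haus4, both at 0.52. The value of Cd59a with Haus4 was 0.20 in lines without a final N and 0.76 in lines with it. With the regions left out of the set, Cd59a had 0.62 and 0.60 with the pair at Lhx9, Zfp759 0.59 and 0.60 with the same pair, and the region near Ppp1r8 0.58 with Nkx2-1.

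CpGs within a member moved together in most members with at least 3 measured CpGs. Single-CpG values existed in 34 members (258 of 7917 CpGs), at least 3 of them in 22. The r over lines of a CpG with the mean of the other CpGs of its region had a median of 0.84 over these 22 members, from 0.61 to 0.94. Neighbouring CpGs can share reads, so this is no independent repeat. The line mean was not removed here, so these values include what the CpGs share with it. No such value is given here for other regions. Members with 2 CpGs gave 0.88 at D630039A03Rik, 0.53 at the Zfp458 region at 67278407 and 0.31 at Stard13. In Cd59a the 9 CpGs had a median of 0.94 (0.77 to 0.96), and r with the line mean was between -0.04 and 0.15 at each. In Ccnb1ip1 the 12 CpGs had a median of 0.94 and means of 3.08% to 12.98%, the latter at position 50795884 inside the start-site window shown above. Inhbc gave 0.93 over 16 CpGs, Rgcc, which encodes a regulator of the cell cycle, 0.88 over 27, and the region across the Meg3 start 0.86 over 30. Atg16l2, a relative of the autophagy factor Atg16l1, had the lowest median, 0.61 over 36 CpGs, whose means ran from 0.491% to 58.5%.

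By position, chromosomes 13 and 14 held the longest runs of members. On chromosome 13 the members were Tbc1d7 (chr13:43160322-43160879), Habp4 (chr13:64162750-64163576), Cdc14b (chr13:64213265-64213486), Zfp759 (chr13:67128916-67129237) and a pair at Zfp458 (chr13:67269534-67270259 and chr13:67278407-67278959). They went on with a region near Cast (chr13:74808905-74809411), Gm41005 (chr13:75838838-75839508), Rhobtb3 (chr13:75876384-75877689), Arsk (chr13:76076880-76076980) and Msh3 (chr13:92345328-92345791). The last were a pair in Iqgap2 (chr13:95672240-95672878 and chr13:95763814-95764320), one near it (chr13:95893266-95894340), Sv2c (chr13:95990907-95991306) and Arhgef28 (chr13:98032182-98032623). On chromosome 14 they were Arhgap22 (chr14:33217538-33218003), Gm30031 (chr14:33922685-33923125), Ldb3 (chr14:34576034-34576660), Rgr (chr14:37045726-37047937), a region near 2610528A11Rik (chr14:37110788-37111060) and one near Rubie (chr14:46587287-46587912). There followed Ktn1 (chr14:47648400-47648827), Ccnb1ip1 (chr14:50795138-50796269), Tep1 (chr14:50828443-50829174), Haus4 (chr14:54553072-54553833), Acin1 (chr14:54647469-54647842) and Rgcc (chr14:79300084-79301671).

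Chromosome 12 had Kidins220 (chr12:25016892-25017168), Acp1 (chr12:30896766-30897175), a region near Ahr (chr12:35535736-35536427), Scfd1 (chr12:51378466-51379536), one across the starts of Meg3 and Gm34081 (chr12:109540054-109541813) and one within Meg3 (chr12:109542341-109543039). Chromosome 11 had Slfn9 (chr11:82989452-82990534), Gm12359 (chr11:98809119-98809532), Acly (chr11:100493701-100494238) and a region near Gm34418 (chr11:117483325-117483550). Chromosome 4 had D630039A03Rik (chr4:57916170-57916631), a region near Ppp1r8 (chr4:132843385-132843691), B3galt6 (chr4:155991146-155991659) and Samd11 (chr4:156252464-156253185). Chromosome 19 had Actn3 (chr19:4876661-4877021), Ppp1r2-ps3 (chr19:30539197-30540239), a region near Cwf19l1 (chr19:44136110-44136555) and Pkd2l1 (chr19:44202664-44202922). Chromosome 3 had a pair of regions near Casq2 (chr3:102085274-102085439 and chr3:102085791-102086074) and one near Arhgef38 (chr3:133235258-133235411). Chromosome 7 had a region near Vmn2r29 (chr7:7278391-7278612), Catsperg2 (chr7:29725692-29726291) and Atg16l2 (chr7:101296416-101297684). Chromosome 18 had regions near Svil (chr18:4919760-4920415), Colec12 (chr18:9707011-9707325) and Epb41l4aos (chr18:33794015-33794579). Chromosomes 5 and 6 had 4933404O12Rik (chr5:136919448-136921122), Stard13 (chr5:151190675-151191302), Rpa3 (chr6:8258033-8258534) and Ppfibp1 (chr6:147003068-147003894). The others were Oprk1 (chr1:5588644-5589074), Cd59a (chr2:104095811-104096669), Tmem255b (chr8:13454756-13455204), a region near Pou2f3 (chr9:43209130-43209574) and Inhbc (chr10:127369540-127370982). A region near Pfdn5 (chr15:102325334-102325456), Itgb5 (chr16:33830593-33831178), Tmem242 (chr17:5418456-5419435) and Rbm3 (chrX:8143174-8143710) completed the set.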

How the data were processed

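EM-seq with targeted capture was deposited as a table of average methylation per region and a table per CpG, each with 85 columns. The submitters' processing notes name Bismark, Bowtie2, Trim Galore 0.6.4 and mm10, in roles and with settings not given in the sources used here. Deposited values are a fraction between 0 and 1, filtered at a coverage of 10 per the tables' names, and are printed here as percent. Of 101 libraries in the labels, 44 columns matched 1 title and 41 were used only by their prefix: 24 with a final N that the title lacks, 16 whose line has 2 titles and 1 with no title. Region positions and category names are the authors' own.

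Prefixes were compared with the F test of limma 3.58.1 (R 4.3.3) on log2((fraction + 0.01)/(1 - fraction + 0.01)) over all 787 kept regions, with and without the line mean, at an adjusted p of 0.05; a line without a value at a region was dropped for that region. Correlations used permutation tests (100000), mixtures mclust 6.1.1 (1 to 4 components). Scripts were tested on simulated data. Other software was Python 3.11.15, NumPy 2.4.6, pandas 2.3.3, SciPy 1.17.1 and matplotlib 3.10.9. Gene names and promoter windows came from RefSeq (GRCm38.p6). Each member is named once with its position; full values are given for the 5 with the lowest r, the 5 with the highest, the 5 with the largest SD, those with components in the deviations and those called beyond the line mean. The members and lists were chosen with earlier results of these data known. Pairs, gaps and lines named beside these were chosen after their values were seen.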

Additional observations from a re-analysis of the deposited data

How the results depend on the processing

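The number of lines, not of reads, sets the precision that can be stated, since depth is unknown. Restricting the table to regions with a value in every column (37 members) gave 29 prefix differences and 35 relations with the line mean, and recomputing region averages from the CpG table (34 members) gave 29 and 31; fewer members were tested there. The recomputed averages gave 7 prefix differences beyond the line mean, the line median in place of the mean 8, and lines without a final N 1. The cause was not tested. Counts in this section are of members only, with no share of all kept regions under the same setting. A change in such a count therefore cannot be read as particular to the members. Mixtures with more than 1 component numbered 11 on log2 odds, 25 with recomputed averages and 27 in lines without a final N. In the deviations they numbered 9 at a BIC gain over 20 and 8 with recomputed averages. The median r of the members was 0.85 within B3B alone, and r at Pou2f3 was -0.26 within B3A. All other settings left these counts within 1.5 times the value reported. The alternatives tried for pairs, and the interaction of prefix and line mean, were chosen after seeing the data, as was leaving out column B1_B37N. Of 405 values of r recomputed for single regions, 380 stayed on the same side of the threshold, 22 no longer passed and 2 newly passed. The remaining 1, that of Pou2f3 within B3A, changed direction from an r that had passed. Changes of sign where neither r passed, as at Cd59a within B1 and B2, were counted among the 380. No paired analysis was possible because replicate numbers follow accession order and pair no columns.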
